A study of Mus musculus with 24 samples.

Results

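The genes for the proteins of the cytosolic ribosome were followed through the differentiation of mouse embryonic stem cells towards cardiomyocytes. They were taken as the protein-coding genes whose symbol is Rpl or Rps with a number, optionally followed by a, x, y or l, or Rplp0, Rplp1 or Rplp2. This gave 80 of the 21631 protein-coding genes on the chromosomes of the peak lists. There were 47 genes of the large subunit, 30 of the small subunit and 3 of the stalk. They lay on 19 chromosomes, 4 of them on X, and were short, with a median length of 3169.5 bp against 17329 bp over all protein-coding genes. The data were ATAC-seq peak lists, which mark DNA that the Tn5 transposase can reach, from A2lox.cre, an established mouse embryonic stem cell line. The time points were the 2i stage, a medium that holds the cells in naive pluripotency, then every day of differentiation from D0 to D8, and after that D10 and D15. No treatment or mutation separated the groups. Each of the 12 time points had 2 biological replicates, but the labels name 1 peak list for both, so no value below has a replicate spread and a step between 2 time points cannot be tested. The share of cells that had become cardiomyocytes was not measured, so fewer cells with an accessible site and less access per cell cannot be told apart. Sequencing depth is unknown. Of 7 naive pluripotency markers, 2 had a gene-end peak at D15 and 5 at 2i, and of 8 cardiomyocyte markers, 3 had one at D15 and 2 at 2i. Over all protein-coding genes the shares were 55.1% at D15 and 55.4% at 2i. Neither marker count moved steadily: the naive markers numbered 3 at D0 and 5 at D1, and the cardiomyocyte markers 5 at D5. Actn2 and Ryr2, of the cardiomyocyte markers, were called in all 12 lists. The ends of the cardiomyocyte genes Myh6, Myl2 and Tnni3 were called in none of the lists.

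A ribosome needs its proteins in matching amounts, and cells make most of them from a single active gene each, scattered over the genome. These genes are among the most strongly transcribed in growing cells and have compact promoters. Many of their transcripts begin with a C followed by a run of pyrimidines, the 5′ terminal oligopyrimidine (TOP) start, through which the mTOR pathway controls their translation. A few have a second copy that is used in some tissues: Rpl3l in heart and skeletal muscle, and Rpl10l and Rpl39l in the testis. Heart muscle is thus the tissue in which Rpl3l is known to take the place of Rpl3.

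RefSeq promoter windows, from 250 bases before to 50 bases after an annotated start, matched 60 of the 80 genes in build GRCm38.p6, the assembly that mm10 names. The sequences below run 5′ to 3′ from 100 bases before the start through the first 20 transcribed bases. Capitals mark the pyrimidine run of a TOP start and, on either strand, the letters of 7 motifs. ETS-family activators such as GABP are known to bind CCGGAAG. The zinc finger factor YY1 is known to bind AAGATGGC, and the general activator Sp1 binds GGGCGG. The TATA box, which places the general transcription machinery, was searched as TATAAA. The CCAAT box is bound by NF-Y. The growth-related activator NRF1 binds GCGCATGC, and BANP, a factor of CpG-rich promoters, binds CTCGCGAG. Overlapping matches of different motifs were each counted. The first 4 belong to genes whose end peaks ranked among the highest of the family.
Rpl37 (chr15:5116513-5116632, plus strand): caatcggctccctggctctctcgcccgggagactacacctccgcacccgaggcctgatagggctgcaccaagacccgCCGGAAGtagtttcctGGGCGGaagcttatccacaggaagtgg
Rpl27 (chr11:101442145-101442264, plus strand): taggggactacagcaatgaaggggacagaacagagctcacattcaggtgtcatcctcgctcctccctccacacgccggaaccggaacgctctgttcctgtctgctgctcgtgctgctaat
Rpl5 (chr5:107900428-107900547, plus strand): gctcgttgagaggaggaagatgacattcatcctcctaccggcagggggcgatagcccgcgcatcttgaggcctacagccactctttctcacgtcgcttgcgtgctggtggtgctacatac
Rpl34 (chr3:130730379-130730498, minus strand): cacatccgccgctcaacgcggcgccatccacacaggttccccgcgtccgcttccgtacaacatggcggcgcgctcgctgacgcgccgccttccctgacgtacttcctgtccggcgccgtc
The next 2 belong to genes whose end peaks ranked among the lowest, although the ranked summit of Rpl18 lay away from the start shown.
Rpl35 (chr2:39005112-39005231, minus strand): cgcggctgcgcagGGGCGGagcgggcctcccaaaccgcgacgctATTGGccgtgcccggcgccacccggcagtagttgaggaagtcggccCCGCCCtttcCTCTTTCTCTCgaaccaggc
Rpl18 (chr7:45717971-45718090, plus strand): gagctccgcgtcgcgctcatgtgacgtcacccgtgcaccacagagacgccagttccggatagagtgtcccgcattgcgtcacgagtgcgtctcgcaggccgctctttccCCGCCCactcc
The last 5 are the tissue-restricted or duplicated forms Rpl10l, Rpl3l, Rpl39l and Rps27l, and Rps27, the partner of Rps27l.
Rpl10l (chr12:66284382-66284501, minus strand): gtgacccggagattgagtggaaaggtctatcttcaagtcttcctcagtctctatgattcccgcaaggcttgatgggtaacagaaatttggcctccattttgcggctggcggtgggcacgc
Rpl3l (chr17:24727726-24727845, plus strand): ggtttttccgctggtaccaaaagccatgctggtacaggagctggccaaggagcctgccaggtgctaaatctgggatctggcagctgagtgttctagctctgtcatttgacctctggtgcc
Rpl39l (chr16:10170128-10170247, plus strand): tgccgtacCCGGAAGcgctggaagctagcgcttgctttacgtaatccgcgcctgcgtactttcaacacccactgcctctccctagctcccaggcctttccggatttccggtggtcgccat
Rps27l (chr9:66945986-66946105, plus strand): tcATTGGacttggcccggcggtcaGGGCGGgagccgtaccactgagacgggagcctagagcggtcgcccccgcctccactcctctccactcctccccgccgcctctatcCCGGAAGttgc
Rps27 (chr3:90213629-90213748, minus strand): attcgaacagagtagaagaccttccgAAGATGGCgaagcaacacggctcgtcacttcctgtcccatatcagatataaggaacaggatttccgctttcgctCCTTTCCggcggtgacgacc
Rpl35 and Rps27 start with a TOP sequence, 11 and 7 pyrimidines long. Rpl37 has an ETS and an Sp1 match close to its start, and in Rps27 the YY1 letters lie upstream. The stretches of Rpl27, Rpl5, Rpl34, Rpl10l and Rpl3l hold none of the motif letters, although for some of these genes a match lies farther out in the window.

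ETS, BANP and TOP start letters were more frequent in this family than in other promoters, and Sp1 letters less frequent than in other genes with steady peaks. For the 48 genes with a promoter entry that were called in all 12 lists, as defined below, the shares are set against the 7792 promoters of all such genes. The 60 genes with an entry are set against all 17274. ETS letters occurred in 39.6% of the 48, against 19.5%, and in 38.3% of the 60, against 12.05%. A TOP start at the first annotated base, a C followed by at least 4 pyrimidines, occurred in 20.8% of the 48, against 2.28%, and in 21.7% of the 60, against 2.20%. Its 13 holders were Rpl14, Rpl15, Rpl28, Rpl32l, Rpl35, Rpl38, Rplp2, Rps6, Rps10, Rps15a, Rps18, Rps21 and Rps27. Within 20 bases of the start such a run was common everywhere, at 81.25% of the 48, against 48.5%, and 80% of the 60, against 50.1%. BANP letters were found in Rpl12, Rpl26, Rpl27a, Rps6, Rps19 and Rps28, which is 12.5% of the 48, against 2.32%, and 10% of the 60, against 1.31%. Sp1 letters were in 60.4% of the 48, against 71.2%, and in 56.7% of the 60, against 46.9%. NF-Y letters were in 31.25% against 40.4%, and in 30% against 39.4%. The counts for the other motifs were small: among the 48 genes TATA letters were in 4 (8.33%, against 5.85%), and YY1 and NRF1 letters in 2 each (4.17%, against 5.12% for YY1 and 6.52% for NRF1). The median GC content of the windows was 57.5% in the 48 genes, against 62.3% in the 7792, so these 2 sets were not matched in base composition. It was 56.8% in the 60 genes and 56.3% in all genes. A match is a description of the letters, not a bound site, and these shares were not tested.

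The rank of the peaks, a percentile explained below, was set beside the motifs for the same 48 genes as a description. For 5 of the 48 the ranked summit was not the start peak in some or all lists. The median percentile was 49.1 for 19 genes with ETS letters and 53.2 for 29 without. It was 47.9 for 10 genes with a TOP start and 51.2 for 38 without, and 42.5 for 6 genes with BANP letters and 52.2 for 42 without. It was 54.5 for 29 genes with Sp1 letters and 45.5 for 19 without, and 57.5 for 15 with NF-Y letters and 49.1 for 33 without. The pair of genes with YY1 letters had 21.8, against 51.8 for the 46 without.

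**Figure D1:**
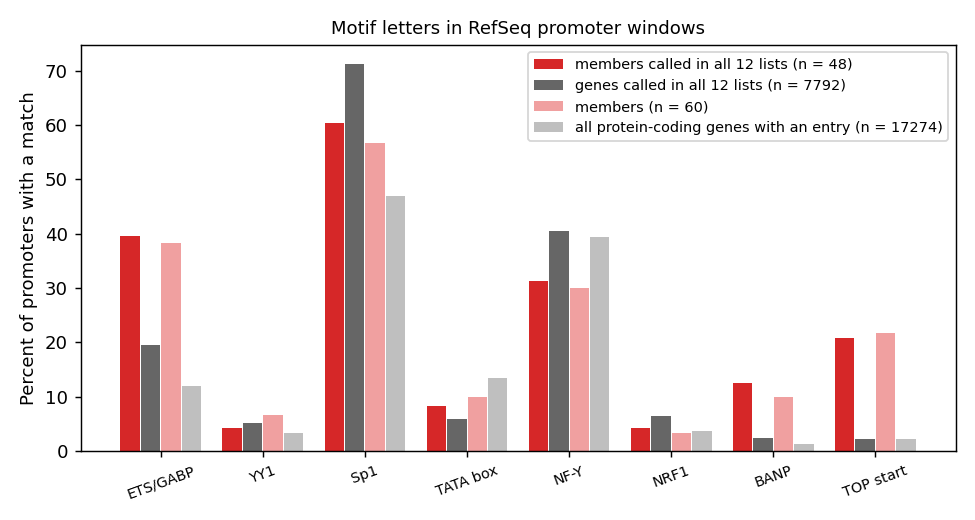
Percent of promoter windows with each motif (vertical axis) for 48 ribosomal protein genes called in all 12 lists, all 7792 genes so called, the 60 ribosomal protein genes with an entry and all 17274 genes with one. ETS, BANP and TOP start letters are more frequent in the ribosomal protein genes of both kinds, and Sp1 letters are less frequent in the 48 genes (60.4%) than in the 7792 (71.2%).

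Whether these genes stayed accessible throughout the course was asked first. Of the 80 genes, 66 (82.5%) were called at a gene end in all 12 lists, meaning that a summit lay no more than 1 kb from one of the annotated ends, against 44.4% of all protein-coding genes. Another 9 had one in some of the lists, against 26.2% of all genes, and 5 had none in any list, against 29.3%. The number called per list moved between 71 and 74 (88.75% to 92.5%), against 50.9% at D1 to 63.6% at D7 of all protein-coding genes. At the annotated start itself, 49 of the 60 genes with a start were called in all 12 lists (81.7%), against 48.4% of all genes with a start. All 3 stalk genes were called throughout, as were 38 of 47 large-subunit and 25 of 30 small-subunit genes. Among the other genes of protein synthesis, 26 of 28 translation factor genes, 17 of 20 ribosome biogenesis genes and 55 of 78 mitochondrial ribosomal protein genes were called in all lists.

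Several of the 14 genes without a steady end peak had a steady peak inside their annotated bounds. Rps2, a small-subunit protein near the messenger entry, was called at neither end, but at its start, 1942 bp inside the gene, the fold enrichment lay between 4.51 and 11.2 in all 12 lists. Fold enrichments are the values of the authors' peak caller and are compared within a list only. Rps27l, a p53-responsive relative of Rps27, likewise had its start 1462 bp inside and a peak there of 6.15 to 17.5 in all lists. Rpl22, an RNA-binding protein needed for T cell development, was called at an end at 2i and D7 alone, with one annotated start at its left end and another 1290 bp inside, and a peak at the inner one of 5.72 to 20.5 throughout. Rpl19, of the large subunit, was called at an end in 9 lists and at its start, 4707 bp inside, in all 12, with 4.23 to 9.74. Rpl17, for which no start was used, had a summit inside the gene in all lists (4.87 to 13.9). With ends, starts and bodies counted together, 71 of the 80 genes were called in all 12 lists, 7 in some and 2 in none, against 53%, 27.8% and 19.2% of all protein-coding genes, whose longer bodies give more room for a summit.

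The single gaps of 6 genes each fell in 1 list. Rpl28 and Rpl23a, of the large subunit, were missing at D0, the small-subunit genes Rps24 and Rps27 at D1, Rpl35a at D4 and X-linked Rps4x at 2i. Rps4x had 5.22, 4.48, 4.25, 8.88, 4.19, 5.24, 6.11, 10.1, 7.91, 5.13 and 8.32 in D0 to D15. A gene missing from a list was not called there, which does not show that its ends were closed. The other X-linked genes, Rpl10, Rpl36a and Rpl39, were called in all 12 lists.

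**Figure D2:**
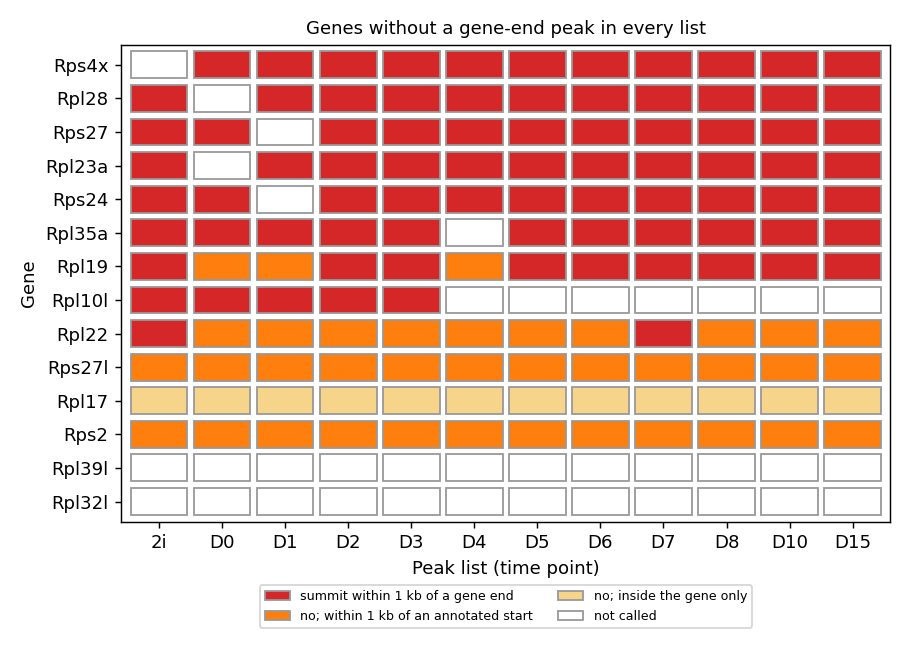
Call grid of the 14 genes (rows) without a gene-end peak in every list, by peak list from 2i to D15 (columns), with the kind of peak given by colour. Rps2, Rps27l, Rpl22 and Rpl19 are called at a start inside the gene wherever no end is called, Rpl10l is called from 2i to D3 only, and Rpl32l and Rpl39l are not called.

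The tissue-restricted forms parted from the rest of the family. Rpl10l, the testis form of Rpl10, lies at chr12:66283379-66284401 on the minus strand. Its fold enrichment was 7.75, 6.39, 5.67, 7.09 and 8.03 in the lists 2i, D0, D1, D2 and D3, with the strongest summit 66 to 162 bp inside its start, and it was called in none of the 7 lists from D4 to D15. This pattern, picked after its values were seen, was held by 26 protein-coding genes (0.12%), of which Rpl10l is the only ribosomal protein gene. A separate site 5220 bp to its right was called at 2i, D4 and D5, and one 7279 bp to its left at 2i and D0. Its X-linked partner Rpl10 was called in all lists, with percentiles of 43.2 to 78.6 on the ranking described below.

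Rpl3l, the striated muscle form of Rpl3, lies at chr17:24727826-24736143. It counted as called in all 12 lists, with 5.53, 4.75, 6.04, 7.72, 16.8, 5.55, 9.49, 9.37, 10.1, 8.42, 5.90 and 4.92 from 2i to D15. All of these summits lay beyond its right end, by 222 to 615 bp, and were shared with an end of the neighbouring gene Msrb1. Rpl3l is on the plus strand, so this is its transcript end, and no list called a summit within 1 kb of either of its annotated starts. Its partner Rpl3, which sits near the peptidyl transferase centre, was called in all lists and stood at the 93.1 percentile at D15 and 33.9 at 2i, against 6.91 at D15 and 20.9 at 2i for the site beside Rpl3l.

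Rpl39l, the testis form of Rpl39, had no summit nearer than 17697 bp in any list, and Rpl32l had none nearer than 8316 bp. Rpl39 itself, which lines the exit tunnel, was called in all 12 lists, with percentiles of 8.12 to 93.3. Rps4l, another duplicated form, is a transcribed pseudogene in the annotation and is not among the 80. A similar pair exists among the elongation factors: Eef1a1, the general form, was called in all 12 lists, and Eef1a2, the form of muscle and neurons, in D0 and from D2 to D8.

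Strength was next compared with that of other genes. In each list the highest fold enrichment at a gene's ends was ranked among the 9612 protein-coding genes called in all 12 lists, and is given as a percentile, so that every list ranks the same genes and all genes have a median of about 50. The 66 ribosomal protein genes in this ranking had a median of 45.8 over their own medians. Small-subunit genes had 53.2, large-subunit genes 40.1 and the stalk genes 57.5. The family thus stood near the middle of steadily called genes, and 9 of 66 (13.6%) had a median above 75, against 21.1% of the 9612. A median under 25 was found for 15 of 66 (22.7%), against 21.8%. Within a gene the percentile ranged over a median of 57.95 points across the lists, against 51.3 for all genes.

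At the top stood Rps29, a small zinc-binding protein of the small subunit, at chr12:69157722-69159186. Its fold enrichment was 10.7, 9.24, 9.76, 15.2, 23.2, 15.8, 17.3, 21.1, 17.7, 14.5, 13.5 and 12.5 from 2i to D15. Its percentile never fell below 83.6 and reached 99.8 at D6. Rpl37, of the large subunit, followed with a median of 92.0 and a range of 77.1 to 97.0, although its end summit is shared with an end of Card6. The median was 86.1 for Rpl27, 86.0 for Rpl5, which carries 5S RNA into the large subunit and binds Mdm2, and 82.8 for Rpl34. These 3 were less even, and Rpl5 stood at 24.7 at D4 and at 97.5 at D2. Rps29 and Rpl37 were above 50 in every list. In the family 3 of 66 genes (4.55%) were so, against 14.2% of all ranked genes.

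Near the bottom were Rpl8, a protein next to the peptidyl transferase centre (median 3.34, highest 9.74), Rpl35, near the exit tunnel (3.99, highest 21.3), Rpl32 (7.72, highest 25.7) and Rpl18 (9.84, highest 29.2). Rpl8 had 3.97, 3.36, 3.59, 4.52, 6.90, 3.48, 6.14, 5.84, 6.03, 6.98, 5.49 and 4.64 in fold enrichment from 2i to D15, so it was called each time with a weak peak. Rpl18 has its annotated start 2604 bp inside the gene, with a peak there of 4.35 to 9.47 in the 11 lists from D0 to D15, so its percentile describes another site. Of the 48 ranked genes with an annotated start, 43 were ranked by their start peak in all 12 lists. The ranked summit was another one in all lists for Rpl3l, Rpl18 and Rpl41, in 11 lists for Rpl4 and in 3 for Rps18. Altogether 12 of 66 genes were under 50 in every list, against 15.7% of all ranked genes. Of the 75 genes with an end peak in any list, 21 (28%) shared a summit with an end of another protein-coding gene, against 24.7% of all.

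**Figure D3:**
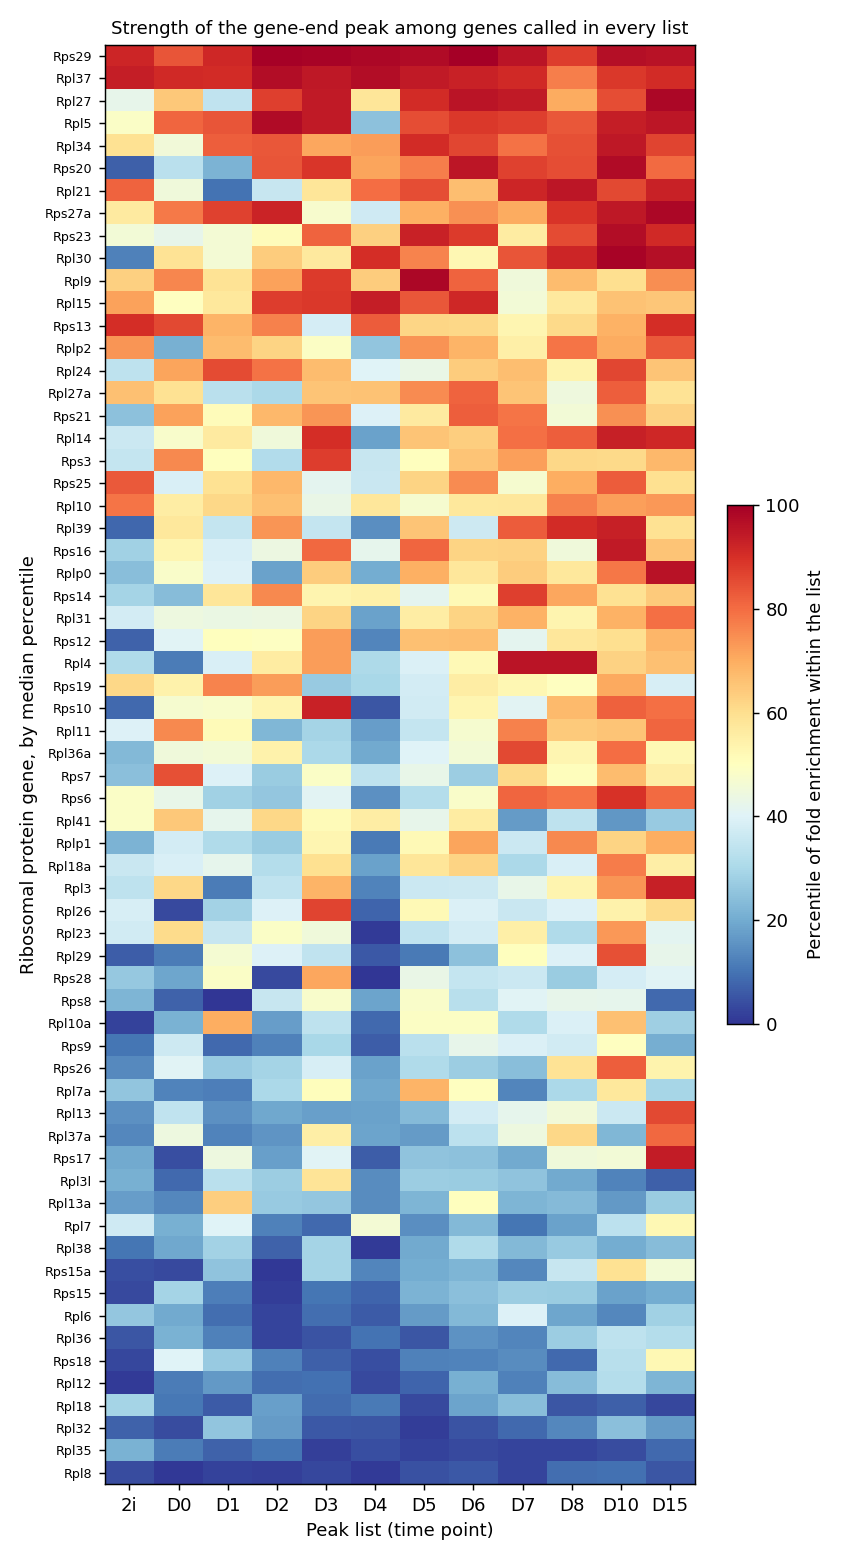
Percentile of the gene-end peak (colour, 0 to 100, among the 9612 genes called in every list) for 64 of the 66 ribosomal protein genes (rows, by median) in each peak list from 2i to D15 (columns). Rps29 and Rpl37 are high throughout, Rpl8 and Rpl35 low throughout, and the D4 column is low and the D10 and D15 columns high for most of the rest.

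The ranks of the family were higher in the later lists, with a low point at D4. Its median percentile stood at 27.4 in the 2i list and at 41.3, 39.9, 35.3 and 49.8 in the lists D0, D1, D2 and D3. It was lowest, 18.5, at D4. The lists D5, D6, D7 and D8 had medians of 43.2, 50.9, 46.3 and 53.2, and D10 and D15 had 66.7 and 63.5. At D15, 55 of 66 genes stood higher than at 2i (83.3%), against 50.4% of all ranked genes, by a median of 27.03 points. At D4, 18 of 66 stood higher than at D3 (27.3%, against 49.0% of all ranked genes) and 48 lower, with a median difference of -17.99 points. At D5, 50 of 66 stood above their D4 rank (75.8%, against 48.4%), and at D10 49 of 66 stood above their D8 rank (74.2%, against 52.7%). The lowest 10% of the ranking held 16 of the genes at D4 and 14 at 2i, but 3 at D10, and the top 10% held 13 at D15, 10 at D10 and 3 at 2i. D10 was the highest list for 20 genes and D15 for 13, while D4 was the lowest for 16 and 2i for 13. The same counts were not made over all ranked genes, so these have no background. The replicate spread of these steps is unknown.

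The statistical weight of the lists moved with this course. Weight here is taken from the peaks whose enrichment lay between 4.9 and 5.1: the median of their −log10 p says how much evidence one and the same enrichment carried. It was lowest at 2i (7.69) and D4 (7.71), where the family ranked lowest, and 11.6 at D3, 11.1 at D10 and 11.5 at D15. Over the 12 lists the median percentile of the family and the weight had a Pearson's r of 0.90 and a Spearman's rho of 0.86, given as a description. The same r was 0.60 for translation factors, 0.51 for ribosome biogenesis genes, 0.47 for 8 ribosomal protein genes named otherwise, and 0.11 for mitochondrial ribosomal protein genes. Day and weight were related over the 11 lists with a day (r = 0.62, rho = 0.50), so that day and weight cannot be told apart, and the part of the weight in the ranks was not tested. Among the genes of the shortest length quartile, which holds 65 of the 66, the ribosomal protein genes had medians of 67.1 at D10 and 18.6 at D4, and all ranked genes had 44.7 at D10 and 36.8 at D4. In each of the 3 lower quartiles of promoter GC content the family stood higher at D10 than at D4, with 62.5 against 18.7, 69.9 against 16.5 and 67.5 against 22.5, and the highest quartile held 1 gene of the family.

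**Figure D4:**
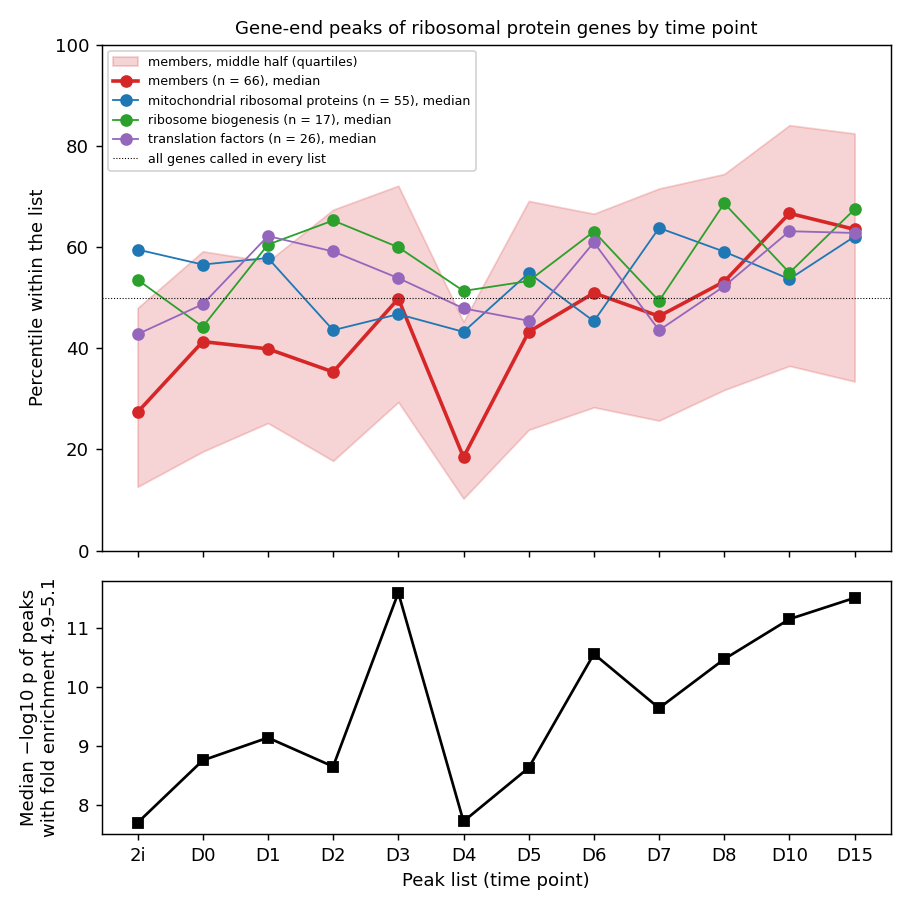
Upper panel, median percentile of the gene-end peak by peak list for ribosomal protein genes (band, lower to upper quartile) and for 3 related gene sets, with 50 as a dotted line; lower panel, statistical weight of each list (median −log10 p at an enrichment between 4.9 and 5.1). The ribosomal protein genes are lowest at D4 (18.5) and 2i (27.4) and highest at D10 (66.7), and the weight is lowest at 2i and D4.

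Whether single genes rose or fell with day was tested over the 11 lists, by Spearman's rho with a two-sided permutation test of 100000 resamples and Benjamini-Hochberg adjustment over the 9612 ranked genes. None of the 66 ribosomal protein genes passed an adjusted p of 0.05, in a ranking where 0.0312% of all genes passed higher with day and 0.0624% lower. With Pearson's r none passed either, and 0% of all ranked genes did in either direction. The smallest p that this permutation test can give is 1e-05. Over 9612 genes a lone gene with that p would not pass, so the adjusted result does not show that ranks were unrelated to day. By Pearson's r, 16 of 66 had an unadjusted p under 0.05 higher with day and 1 lower, against 6.22% and 6.52% of all ranked genes. Without adjustment, 18 of 66 had p under 0.05 higher with day and 1 lower, against 6.37% and 6.79% of all ranked genes. A positive rho was found for 55 of 66 genes and a negative one for 11 (49% and 50.8% of all ranked genes), and the median rho was 0.43, against -0.01 for all. All 3 stalk genes, whose proteins recruit translation factors, were among the 18. The median rho was 0.14 for mitochondrial ribosomal protein genes, 0.22 for ribosome biogenesis genes and 0.14 for translation factors, with 3 of 55, 2 of 17 and 2 of 26 genes at unadjusted p under 0.05 higher with day.

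The genes next to the threshold are named here after their values were seen. Rpl21, of the large subunit, had the smallest p, with percentiles of 45.1, 9.93, 35.2, 58.2, 79.7, 84.9, 66.4, 91.8, 95.0, 85.6 and 92.7 from D0 to D15 (rho = 0.90, Pearson's r = 0.76, permutation p = 0.00058, adjusted p = 0.0961). It stood at 81.4 at 2i, before the course with days began. Without D0 and D15, the lists farthest from the median day, its rho was 0.90 (permutation adjusted p = 0.298). With 2i placed before D0 the rho was 0.77, and with −log10 p as the strength it was 0.77. Rpl8, which stayed at the bottom throughout, had a rho of 0.81 (permutation adjusted p = 0.178). Rps23, a protein of the decoding centre, had percentiles of 42.2, 46.4, 50.9, 81.5, 63.2, 92.8, 88.1, 56.1, 85.5, 97.1 and 91.2 from D0 to D15, with a rho of 0.79 (permutation adjusted p = 0.193). Rpl13, of the large subunit, stood at 85.6 at D15 and 34.4 at D0 (rho = 0.78, permutation adjusted p = 0.196), and had the smallest Pearson p of the family (r = 0.85, permutation adjusted p = 0.156). Rpl30 stood at 96.6 at D15 and 58.8 at D0, with a rho of 0.76. Rplp0, the base of the stalk, stood at 96.1 at D15 and 48.2 at D0 (rho = 0.74, permutation adjusted p = 0.236). Rpl41, which encodes a very short basic peptide, went the other way, with percentiles of 64.8, 42.0, 61.5, 51.3, 55.8, 42.2, 56.1, 17.0, 33.8, 16.1 and 26.7 (rho = -0.75, permutation adjusted p = 0.223). This summit lay at its transcript end in every list and is shared with an end of Zc3h10, so the ranks do not describe its start. A start peak of Rpl41 was called in 9 lists, with a fold enrichment of 3.34 to 6.39. The percentiles of the transcript-end summit from D7 on lay below all earlier ones.

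The start peaks sat close to the annotated start. Over the 49 genes called at their start in all lists, the median distance of the strongest summit was -10.5 bp, with quartiles of -125.5 and 76.5 bp, where negative values are upstream. In 28 of 49 genes (57.1%) it was within 100 bp, against 50% of 8362 genes. It was upstream in 59.2%, against 47.9%. The farthest upstream were Rps26 at -309 bp, Rps19 at -290 bp and Rpl10 at -284 bp, and the farthest downstream were Rpl24 at 190 bp and Rpl13 at 155 bp. The intervals around the end summits were narrower in the family than in all genes in every list, with medians of 650 bp against 800 bp at D4 and 934 bp against 963 bp at D15. Intervals with several summits were also fewer in every list, at 38.4% against 48.2% at D15 and 2.70% against 13.1% at D3.

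**Figure D5:**
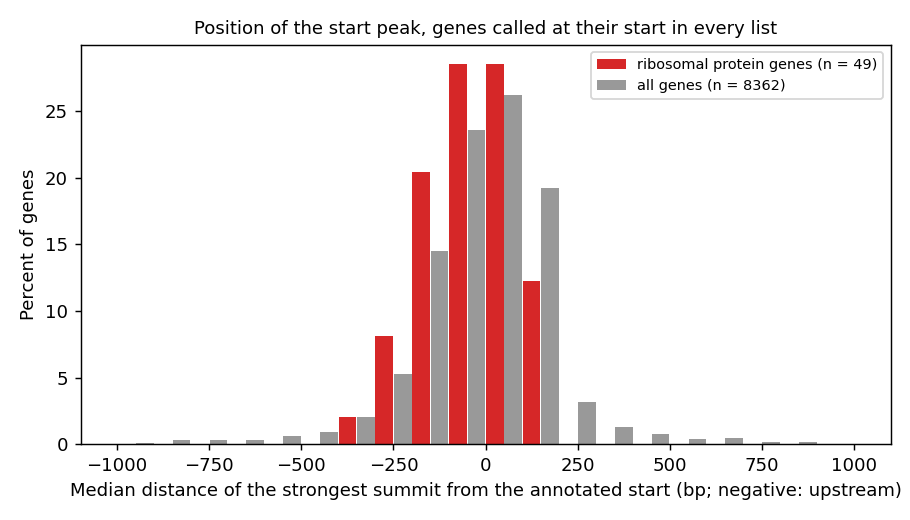
Percent of genes (vertical axis) by the median distance of the strongest summit from the annotated start, in bins of 100 bp with paired bars (horizontal axis, bp, negative is upstream), for 49 ribosomal protein genes and 8362 genes. Both peak around the start, and the ribosomal protein genes have more summits upstream, 59.2% against 47.9%.

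Beyond their own ends, the neighbourhoods of these genes held about as many summits at ends of other genes as elsewhere. Within the bodies and 10 kb to either side there were 481 summits over the 12 lists at no end of another protein-coding gene. Per list and 10 kb this was 0.212, against 0.136 around all protein-coding genes, and summits at ends of other genes came to 0.215 against 0.0458. Both rates count the same neighbour for each gene near it. No such summit was found for 19 genes (23.75%), against 24.28% of all genes, whose longer bodies give a longer stretch to search. Neither the rates nor these shares were matched for gene length. Grouped into sites by gaps of at most 500 bp, all other summits formed 141 sites, of which 44 were at an end of another protein-coding gene, 10 at an annotated start of another gene, 6 at the gene's own start inside its bounds and 4 at an end of another kind of gene. The remaining 77 lay at no annotated end or start, and 1 of these was called in all 12 lists, against 21 of the 44 at ends of other protein-coding genes.

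The most such summits lay in or around Rpl23a (34), Rpl14 (28), Rpl24 (27), Rpl18 (25), Rpl3l (17) and Rpl17, Rpl19, Rpl22 and Rps3 (16 each). For Rpl19 and Rpl22 the count includes the peak at their own start inside the gene, called in all 12 lists. For Rpl17 it includes the peak inside the gene, also called in all 12, so these counts are not mainly of neighbouring sites. Several of the sites counted here lay at the annotated start of another gene: Tlcd1 beside Rpl23a, the noncoding gene Zbtb11os1 beside Rpl24, 5830454E08Rik beside Rpl14 and the snoRNA host Snhg9, at the start of Rps2, to the left of Rpl3l. The exception called in all 12 lists lay 5458 bp to the left of Rps28, at chr17:33817467-33817892, with a fold enrichment of 5.90 to 18.2. A site 9118 bp to the left of Rps3, at chr7:99468457-99469158, was called in the 11 lists from D0 to D15 (5.87 to 15.7) and one 2996 bp to the right of Rpl12, at chr2:32966761-32967302, in all lists but D1 (3.05 to 11.3). Some sites were called in early lists only, such as one 8747 bp to the right of Rps25 at D0, D1 and D3 (5.06 to 5.62). Others were called in late lists only, and the sites of each kind were not counted. A site 9632 bp to the right of Rplp0 was called at D5 to D8 and at D15, with 3.82 to 8.73, and one 4395 bp to the right of Rps16 at D5 to D10, with 3.29 to 6.62.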

How the data were processed

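Nuclei from 2 replicates at each of 12 time points were transposed in vitro, per the labels' protocols. The submitters' processing notes name Picard, MACS2 2.1.1, SAMtools 1.5, Bowtie2 2.3.2 and cutadapt 2.10, and the build mm10. The sources used here do not give the depth, any shift of reads for the transposase, or how replicates were combined. A deposited peak carries the authors' peak caller's fold enrichment (a linear ratio), its −log10 p-value and, on the same scale, its q-value. No other column of per-sample values was present.

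Gene bounds and starts came from RefSeq tables of GRCm38.p6. Each summit was counted as a peak, and the strongest summit within 1 kb of an end gave a gene's value. Correlations with day used 11 lists, since 2i has no day. The test was checked on simulated data. Python 3.11.15, numpy 2.4.6, pandas 2.3.3 and matplotlib 3.10.9 were used.

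Genes, gene lists and motifs were chosen with earlier results of these data known. Genes were named if not called in all lists, if tissue-restricted or duplicated, if among the 5 highest or lowest by median percentile, if they passed the trend test, if they had most other summits (up to 8, with ties), or if they shared a summit within the family. Others are named after their values were seen. Values of 2 genes are not reported here, although counts and medians include them. Alternatives varied the window, peak threshold, number of peaks, gene start, strength measure, summit choice, shared ends, lists used, correlation and flank.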

Additional observations from a re-analysis of the deposited data

How the results depend on the processing

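No paired analysis was possible because 1 list serves both replicates of a time point, and for the same reason no replicate could be left out. Genes with an end peak in all 12 lists numbered 64 with a 500 bp window, against 8475 of all 21631 protein-coding genes. With 2 kb they numbered 70, against 10452. Under a stricter threshold (−log10 q from 5) they numbered 47, against 7686, and with equal numbers of peaks 56, against 8637. At starts they numbered 49 of 60, against 8362 of 17274. Without 2i and D4, chosen after seeing the data, 68 were called in all 10 lists left. Leaving lists out cannot lower this count for any set of genes, and it was not taken over all genes. Ribosomal protein genes called in no list numbered 9 with 500 bp and 2 with 2 kb, also without a count over all genes. Other summits numbered 232 within 5 kb, 910 within 20 kb and 312 under the stricter threshold, against 481. The overall median percentile was 38.9 to 49.9 and that at D4 16.5 to 22.8 under 8 alternatives. Ranking by −log10 p gave 36.3 at D3 and 56.7 at D10; the cause was not tested. No ribosomal protein gene passed the adjusted trend test under any of 22 alternatives, in which few or no genes of any kind passed. These tested from 47 to 70 genes of the family, with 10 to 24 at an unadjusted p under 0.05 higher with day (12 of 66 without D10 or without D15). Apart from Pearson's r, the share of all ranked genes at this cut was not counted under the alternatives, so these counts have no background. The 9 genes called among all genes became 0 to 27. Before the start alone, YY1 letters were in 1.67% and NRF1 letters in 0% of promoters. Depth is unknown, so a missing call is not a closed site.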
